A study of Mus musculus with 7 samples.

Results

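The genes described here encode assembly factors of the respiratory complexes. These proteins help to build complexes I to V of the mitochondrial inner membrane but are not part of the finished enzymes. The members are the genes whose platform symbol starts with Ndufaf together with a fixed list of further factors, 36 genes in all. No gene beyond the list carried an Ndufaf symbol. Each gene was read through 1 probe set with a single gene symbol, and where a gene had several, that of highest mean signal was used. Of the 36 members, 35 had such a probe set, out of 19938 genes measured in this way. Sco2 was represented only by a probe set that also names another gene, so it has no value here.

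The tissue was the extensor digitorum longus, a lower-leg muscle made mostly of fast fibres, and transcripts were read on 1 array per sample. There were 4 arrays from wild type mice and 3 from mice labelled AMPKα1α2 double knockout. These lack, by their label, both catalytic subunits of AMP-activated protein kinase, an enzyme that responds to low cellular energy. Both groups were of C57/Bl6 and SV129 mixed background. Age, sex, the promoter of any Cre and the state of exercise are not stated in the labels. The series title concerns fatty acid use by muscle during exercise, and the comparison made here is knockout against wild type. The design text counts mice, so the p-values measure the spread between animals.

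Respiratory complexes combine many subunits with iron-sulphur clusters, flavin, heme and copper. Dedicated factors insert these cofactors, hold intermediates together and leave before the complex works. Complex I factors guide its matrix arm and membrane arm, complex IV factors handle copper, heme A and the mitochondrially made core subunits, and complex V factors chaperone the catalytic head and the ring of c subunits. Skeletal muscle holds large amounts of all these complexes. Inherited loss of single factors is a known cause of mitochondrial disease.

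Array medians lay between 7.50 and 7.58 on the log2 scale. The 10 markers of skeletal muscle averaged 13.63 to 13.72 in wild type and 13.68 on each knockout array, in keeping with the labelled tissue. Prkaa1, which encodes subunit α1, was lower by 0.51 ± 0.09 log2 units (SE), and Prkaa2, for α2, by 0.21 ± 0.07. Neither passed the test over all genes (limma with Benjamini-Hochberg adjustment, adjusted p = 0.12 and 0.39). Probes outside a deleted part check nothing, and the labels do not say which exons are missing, so the genotypes rest on the labels. Markers of several other cell types stood apart between the groups. Mean levels of 10 macrophage markers ran from 8.01 to 8.24 in wild type and from 8.66 to 8.83 in knockout muscle, with 9 of 10 above. Those of 7 slow-fibre markers ran from 8.31 to 8.50 and from 8.52 to 9.22, with 6 of 7 above. Those of 10 endothelial markers ran from 9.54 to 9.71 and from 9.28 to 9.40, with 10 of 10 below. Those of 5 adipocyte markers ran from 8.22 to 8.49 and from 8.06 to 8.18, with 4 of 5 below. Fibroblast markers overlapped (10.37 to 10.79 and 10.59 to 11.04), with 5 of 7 above. The mean levels of 3 Schwann cell markers and of 2 red cell markers overlapped too. The part of these shifts in the results below was not tested. In whole muscle, fewer cells of a type and less RNA per cell cannot be told apart.

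Transcripts of most assembly factors lay slightly below wild type in knockout muscle, and none passed the test over all genes. Of the 35 measured members, 31 had a lower mean in the knockout, or 88.6%, where 53.3% of all genes did. The median difference was -0.083 log2 units, against -0.0049 over all genes, and single members ran from -0.57 for Atpaf1 to 0.15 for Cox18. In limma with Benjamini-Hochberg adjustment, 0 of 35 reached an adjusted p under 0.05, a level met by 0.0251% of all genes. The smallest adjusted p was 0.17, for Taco1. At an unadjusted limma p under 0.05, 10 members were lower, or 28.6%, where 6.69% of all genes were, and 0 were higher, where 3.93% of all genes were. For 13 members, or 37.1%, the highest of 3 knockout values was under the lowest of 4 wild type values, against 5.33% of all genes. The opposite order occurred in 0 members and in 3.29% of all genes. The count of 10 became 6 without wild type replicate 3, where 4.35% of all genes were lower. The count of 13 became 20 without knockout replicate 1, where the share of all genes was 12.3%, and for a given probe set leaving out an array can only keep or add such an order.

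**Figure D1:**
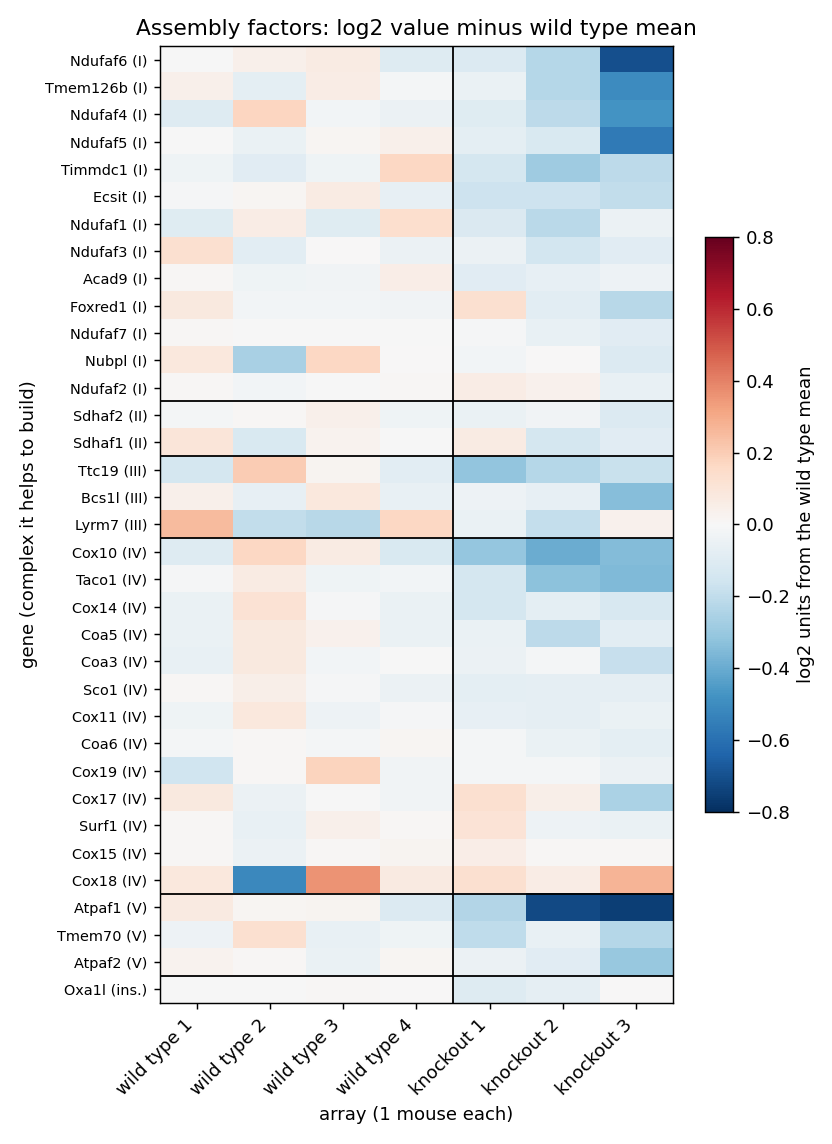
Heat map of 35 assembly factors (rows, grouped by the complex they serve) on 7 arrays (columns), coloured by the log2 value minus the wild type mean of the gene. Blue cells gather on the knockout side and are deepest in knockout replicates 2 and 3 for Atpaf1 and in replicate 3 for Ndufaf6.

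The knockout arrays differed among themselves. The median deviation of the 35 members from the wild type mean was -0.054 on knockout replicate 1, -0.078 on replicate 2 and -0.11 on replicate 3. On the wild type arrays it lay between -0.016 and 0.0063. Knockout replicate 3 held the lowest of the 7 values for 17 members, replicate 2 for 7 and replicate 1 for 5. Knockout replicate 1 also held the highest value for 5 members, and the other knockout arrays for 0. All-gene medians of the same deviation were -0.011, -0.015 and 0.011 on the knockout arrays, so knockout replicate 3 was lowest for these genes while its all-gene median lay slightly above wild type.

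**Figure D2:**
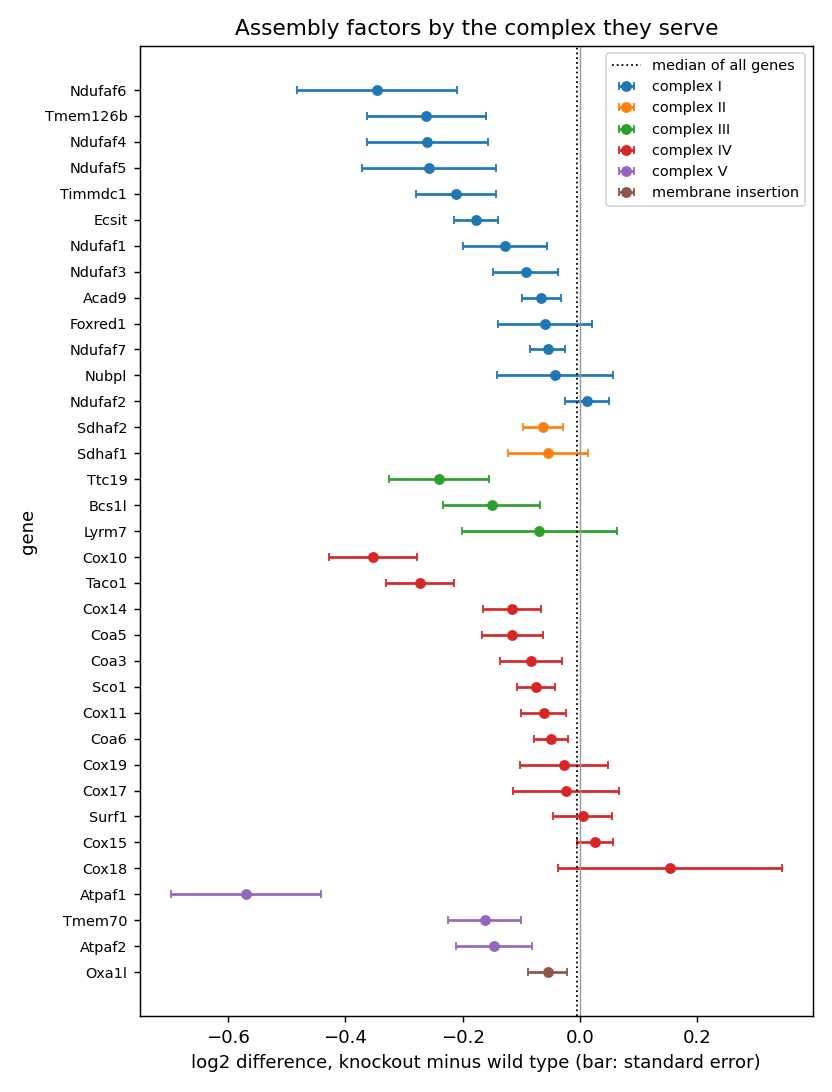
Log2 difference, knockout minus wild type, of each assembly factor with its moderated standard error (n = 4 and n = 3), coloured by complex, with the all-gene median as a dotted line. Atpaf1 lies farthest to the left at -0.57, and Cox18 farthest to the right at 0.15 with the widest bar.

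Complex I factors had a median difference of -0.13 over 13 members. Of these, 12 were below wild type (53.3% of all genes), 5 were lower at an unadjusted limma p under 0.05 (6.69% of all genes) and 0 were higher. For 6 of them the knockout arrays lay wholly below (5.33% of all genes). The count of 5 was 2 without wild type replicate 3, without wild type replicate 4 and with the replicate number as a block, where 4.35%, 5.16% and 5.10% of all genes were lower. It was 3 on leaving out wild type replicate 1, wild type replicate 2 or knockout replicate 2 (4.97%, 5.82% and 4.14% of all genes), and 8 on leaving out knockout replicate 1 (8.50%). Wild type replicate 4 has no same-numbered knockout array, so it does not enter the differences of the block fit.

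The first group of complex I factors forms the intermediate-assembly complex that builds part of the membrane arm, with Ndufaf1, Ecsit, Acad9, Tmem126b and Timmdc1. Ecsit, which is also known as a Toll pathway adaptor, read 9.82, 9.84, 9.89 and 9.76 on the wild type arrays and 9.66, 9.66 and 9.63 on the knockout arrays. The groups were separate and the knockout values were tight. The log2 difference was -0.18 ± 0.04 (1.13-fold lower, limma adjusted p = 0.17). Timmdc1, a membrane protein of the same intermediate, read 10.34, 10.28, 10.34 and 10.54 in wild type muscle and 10.23, 10.09 and 10.17 in the knockout. Its groups did not overlap either, although wild type replicate 4 stood above the other wild type arrays. The difference was -0.21 ± 0.07 (limma adjusted p = 0.36).

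The Timmdc1 promoter is shown because 4 ETS cores lie before its start, more than in any other member with a promoter entry. The 30 bases before the start (RefSeq, GRCm38.p6, chr16:38522664-38522693, minus strand) hold a pair of cores on opposite strands that overlap by 4 bases, in capitals.
Timmdc1: ccggtctcctttccgagagCTTCCGGAAGt

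Tmem126b, another membrane member of the intermediate, read 9.54, 9.42, 9.56 and 9.49 in wild type, against 9.45, 9.27 and 9.00 in knockout muscle. Knockout replicate 1 lay inside the wild type range and replicate 3 far below it. The difference of -0.26 ± 0.10 (limma adjusted p = 0.44) was -0.14 without knockout replicate 3. Ndufaf1, the chaperone at the core of this group, differed by -0.13 ± 0.07 (-0.08 without knockout replicate 2) with overlapping groups. Acad9, an acyl-CoA dehydrogenase relative that also serves assembly, differed by -0.07 ± 0.03, and its knockout arrays (8.93 to 8.98) lay just below the wild type arrays (8.98 to 9.07).

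The second group works on the matrix arm. Ndufaf3 and Ndufaf4, partners that assist the quinone-binding module, differed by -0.09 ± 0.06 (-0.05 without wild type replicate 1) and -0.26 ± 0.10. Ndufaf5, which hydroxylates an arginine of a core subunit, differed by -0.26 ± 0.11, and Ndufaf6, needed early in assembly, by -0.35 ± 0.14. In both, knockout replicate 3 stood apart, at 7.79 for Ndufaf5 and 7.83 for Ndufaf6, while the other knockout arrays read 8.28 and 8.23 for Ndufaf5 and 8.43 and 8.31 for Ndufaf6. Without that array the differences were -0.15 for Ndufaf4, -0.10 for Ndufaf5 and -0.17 for Ndufaf6. The limma adjusted p over all arrays was 0.45, 0.49 and 0.45 in that order.

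The Ndufaf4 promoter is shown because it holds an NRF1 core before its start, a motif widely found near genes of the respiratory chain. Ttc19 also holds this core before the start used here (bases -31 to -23), though after an outer RefSeq start of the gene, and is not shown. The 120 bases before the Ndufaf4 start (RefSeq, GRCm38.p6, chr4:24897963-24898082, plus strand) carry the core on both strands, in capitals.
Ndufaf4: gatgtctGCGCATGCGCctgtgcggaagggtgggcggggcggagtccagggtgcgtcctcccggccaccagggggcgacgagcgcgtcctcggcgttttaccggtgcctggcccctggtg

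The remaining complex I factors modify core subunits, supply cofactors or act late. Ndufaf7, a methyltransferase that modifies a core subunit, differed by -0.05 ± 0.03, with knockout arrays just below wild type. Nubpl, which delivers iron-sulphur clusters, differed by -0.04 ± 0.10 and Foxred1, a flavin-dependent oxidoreductase, by -0.06 ± 0.08. Ndufaf2, which acts late in assembly, stood at 0.01 ± 0.04. The sign of these last 3 turned in at least 1 alternative.

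Complex II has a pair of factors on the list. Sdhaf2, which helps to attach flavin to subunit A, read 9.55, 9.58, 9.61 and 9.53 in wild type muscle and 9.52, 9.54 and 9.46 in the knockout. The groups overlapped, and the difference of -0.06 ± 0.03 (limma adjusted p = 0.59) was -0.04 without knockout replicate 3 and under array weights. Sdhaf1, which serves the iron-sulphur subunit B, read 9.34, 9.12, 9.27 and 9.24 against 9.31, 9.11 and 9.15. Its groups overlapped, with a difference of -0.05 ± 0.07 that was -0.12 without knockout replicate 1 and -0.01 without replicate 2 (limma adjusted p = 0.83).

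Complex III factors all serve the Rieske iron-sulphur subunit, and 3 of 3 had lower means (53.3% of all genes). Ttc19, which clears fragments of that subunit, read 9.34, 9.68, 9.50 and 9.39 in wild type, against 9.17, 9.25 and 9.30 in knockout muscle. The groups were separate by a small margin, and the difference was -0.24 ± 0.09 (limma adjusted p = 0.41). Bcs1l, the translocase that moves the folded subunit across the inner membrane, read 9.84, 9.73, 9.88 and 9.74 against 9.75, 9.73 and 9.45. Only knockout replicate 3 lay below the wild type range. The difference of -0.15 ± 0.08 (limma adjusted p = 0.60) was -0.05 without it. Lyrm7, which stabilises the subunit before insertion, differed by -0.07 ± 0.13, with a wild type range of 7.77 to 8.24 that enclosed every knockout value.

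Complex IV factors had a median difference of -0.062 over 13 measured members. Of these, 10 were below wild type (53.3% of all genes), and 5 had knockout arrays wholly below (5.33% of all genes). At an unadjusted limma p under 0.05, 2 were lower and 0 were higher (6.69% and 3.93% of all genes). The count of 2 became 5 after median centring, where 7.71% of all genes were lower. It became 4 with all probe sets in the fit or without wild type replicate 4 (6.71% and 5.16% of all genes). Cox14 and Sco1 lay just outside that threshold (limma's unadjusted p = 0.051 and 0.053, adjusted p = 0.47 and 0.48).

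For heme A, Cox10 makes heme O and Cox15 converts it. Cox10 read 9.99, 10.26, 10.16 and 9.98 in wild type muscle and 9.79, 9.70 and 9.75 in the knockout. The knockout arrays lay well below every wild type array and close together. The difference was -0.35 ± 0.08 (1.28-fold lower, limma adjusted p = 0.18), and it ran from -0.39 to -0.30 over all alternatives. Cox15, the next enzyme, was at 0.03 ± 0.03 with overlapping groups. Surf1, which assists heme insertion into the core subunit, was at 0.005 ± 0.050, with a sign that turned in 4 alternatives.

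The Cox10 promoter is shown because the gene had the clearest separation among the complex IV factors. Its 60 bases before the start (RefSeq, GRCm38.p6, chr11:64079473-64079532, minus strand) hold 1 ETS core, in capitals.
Cox10: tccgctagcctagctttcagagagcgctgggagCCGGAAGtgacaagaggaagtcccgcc

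The next set governs synthesis of the mitochondrially encoded core subunit COX1. Taco1, its translational activator, read 9.85, 9.93, 9.82 and 9.84 in wild type, against 9.72, 9.53 and 9.51 in knockout muscle. All knockout arrays were lower, with replicate 1 nearest to wild type. The difference was -0.27 ± 0.06 (1.21-fold lower, limma adjusted p = 0.17). Cox14, which binds newly made COX1, read 9.76, 9.92, 9.80 and 9.75 against 9.67, 9.73 and 9.68. The groups were separate by a narrow margin and the difference was -0.12 ± 0.05 (limma adjusted p = 0.47, and -0.08 without wild type replicate 2). Coa3, its partner, differed by -0.08 ± 0.05 (-0.03 without knockout replicate 3) with overlap.

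The remaining complex IV factors serve copper delivery and membrane insertion. Sco1, a copper chaperone of COX2, read 7.83, 7.87, 7.82 and 7.77 in wild type muscle and 7.74, 7.75 and 7.75 in the knockout, a difference of -0.07 ± 0.03 without overlap. Cox11, which serves the copper site of COX1, differed by -0.06 ± 0.04 (-0.03 without wild type replicate 2), again without overlap. Coa6, a further factor of COX2 copper loading, differed by -0.05 ± 0.03, and Coa5 by -0.11 ± 0.05 (-0.07 without knockout replicate 2). In both, knockout replicate 1 equalled the lowest wild type value, which was counted as overlap, and the other knockout arrays lay below. Cox17, which hands copper to the Sco proteins, and Cox19, which works with Cox11, differed by -0.02 ± 0.09 and -0.03 ± 0.08, and both signs turned in at least 1 alternative. Cox18, which inserts the tail of COX2, was the most variable member. Its wild type arrays read 10.16, 9.56, 10.43 and 10.14, so that replicate 2 lay below all knockout arrays (10.20, 10.13 and 10.34). The difference of 0.15 ± 0.19 was -0.02 without that array.

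Complex V factors had a median difference of -0.16, and 3 of 3 lay below wild type (53.3% of all genes). Atpaf1, the chaperone of the catalytic β subunit, read 10.97, 10.92, 10.93 and 10.79 in wild type, against 10.67, 10.18 and 10.15 in knockout muscle. Every knockout array was lower, and replicate 1 was much closer to wild type than replicates 2 and 3. The difference was -0.57 ± 0.13 (1.48-fold lower, limma adjusted p = 0.20), the largest among the members. A second probe set annotated to Atpaf1 gave -0.58 ± 0.12 (limma adjusted p = 0.17). Probe positions were not at hand, so it was not checked whether either probe set reads another genomic copy of the gene. Nor was it checked whether both read the same transcript, so the second value is not independent evidence. Without knockout replicate 1 the first differed by -0.74 with a limma adjusted p of 0.044, and it passed in no other alternative.

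Tmem70, which promotes formation of the c ring, read 9.76, 9.93, 9.74 and 9.77 in wild type muscle and 9.60, 9.74 and 9.57 in the knockout. Knockout replicate 2 met the lower edge of the wild type range, and the difference was -0.16 ± 0.06 (limma adjusted p = 0.44). Atpaf2, the chaperone of the α subunit, differed by -0.15 ± 0.06 with overlap (-0.07 without knockout replicate 3). At an unadjusted limma p under 0.05, 2 of the 3 were lower, where 6.69% of all genes were. The count was 1 under array weights or without wild type replicate 2, wild type replicate 4 or knockout replicate 3. There 8.24%, 5.82%, 5.16% and 6.5% of all genes were lower, in that order.

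Oxa1l, the insertase that places mitochondrially made and some imported proteins into the inner membrane, serves several complexes. It read 10.54, 10.54, 10.56 and 10.54 in wild type, against 10.44, 10.47 and 10.55 in knockout muscle. Knockout replicate 3 lay inside the tight wild type range, in contrast to its place for most members. The difference was -0.06 ± 0.03 (limma adjusted p = 0.65). It was -0.03 without knockout replicate 1 and -0.09 without replicate 3.

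**Figure D3:**
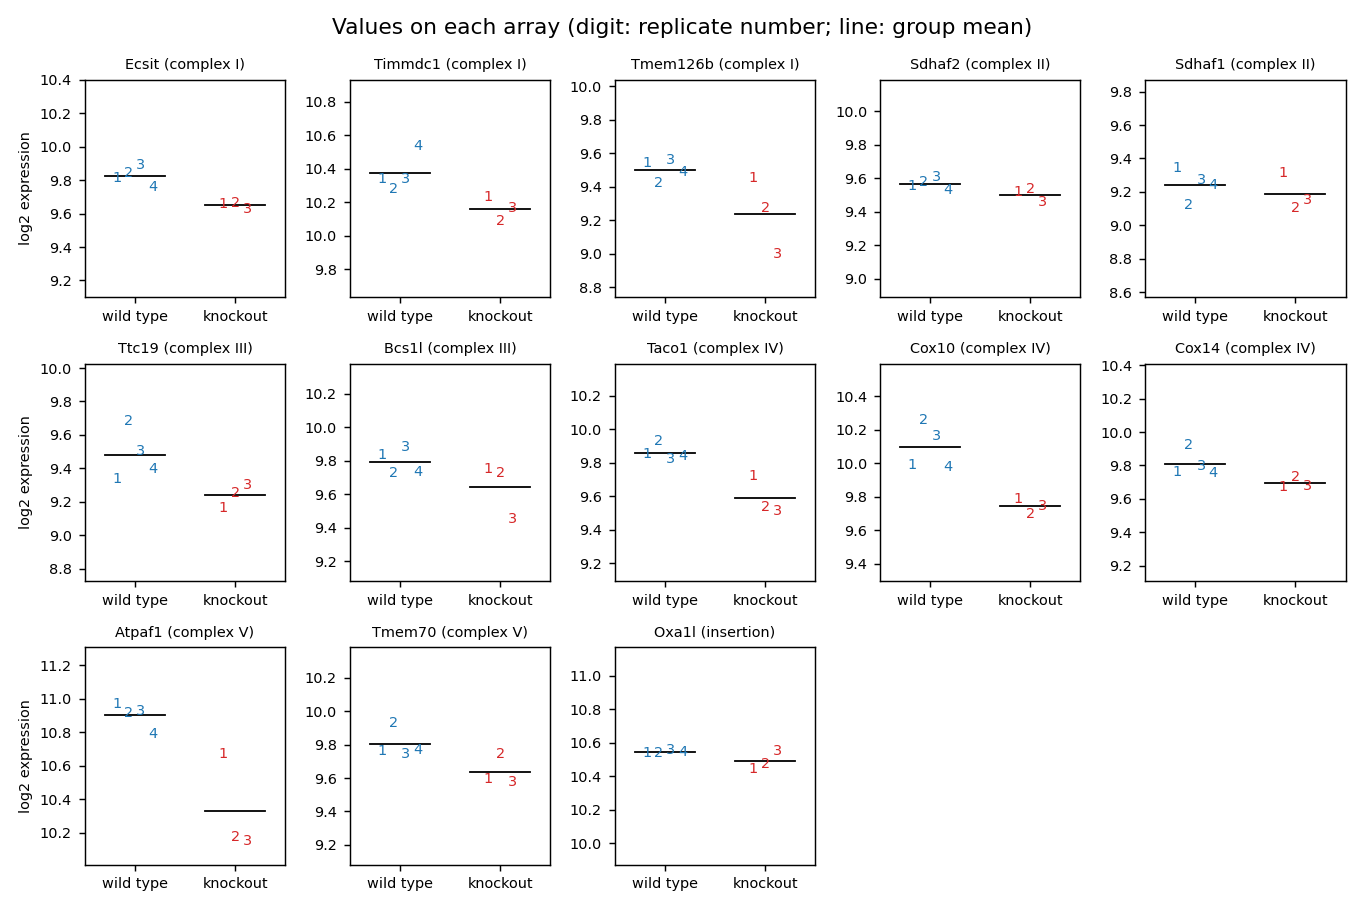
Log2 expression on each array (digits give the replicate number, lines the group mean, and every panel spans the same range) for 13 members chosen by the smallest p in each complex. Ecsit and Cox10 show tight, separate knockout values, while in Tmem126b and Atpaf1 the knockout arrays spread widely.

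The finished enzymes were read beside their builders. Of 73 measured structural subunits of complexes I to V, 71 had lower means (53.3% of all genes). At an unadjusted limma p under 0.05, 57, or 78.1%, were lower and 0 were higher (6.69% and 3.93% of all genes). The median difference of the 73 subunits was -0.17, against -0.083 for the assembly factors. By complex, the medians of assembly factors and subunits were -0.13 and -0.16 for complex I, -0.059 and -0.23 for complex II, and -0.15 and -0.14 for complex III. They were -0.062 and -0.16 for complex IV and -0.16 and -0.17 for complex V. The gap between the lists was not tested, and both were read on the same arrays. Adjusted over all genes by limma, 0 of the 73 subunits passed. The subunits of smallest p were Ndufa8 (-0.29 ± 0.04) and Ndufv1 (-0.24 ± 0.04) in complex I, Sdhc (-0.27 ± 0.03) and Sdhd (-0.23 ± 0.04) in complex II and Uqcrc1 (-0.22 ± 0.04) and Uqcrfs1 (-0.31 ± 0.06) in complex III. In complex IV they were Cox5a (-0.31 ± 0.04) and Cox8b (-0.26 ± 0.04), and in complex V Atp5c1 (-0.24 ± 0.03) and Atp5a1 (-0.23 ± 0.04).

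**Figure D4:**
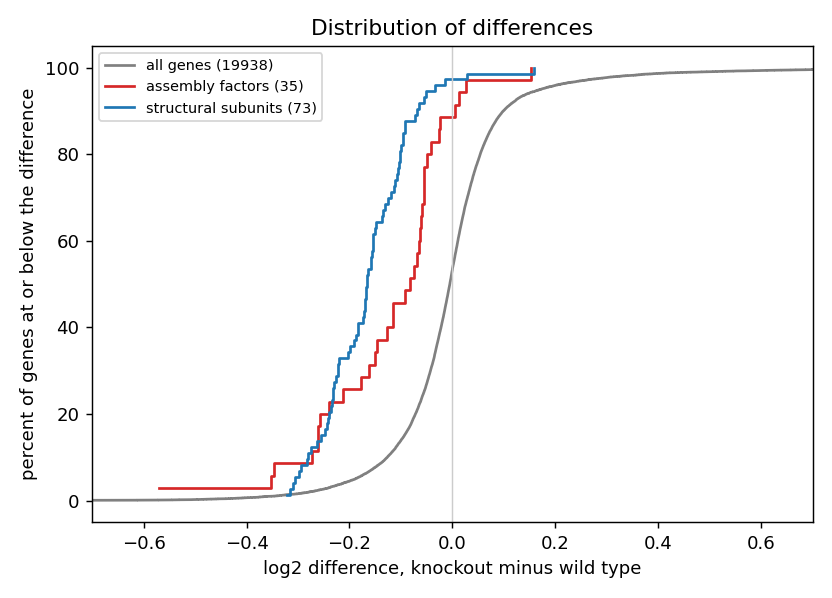
Cumulative percent of genes at or below a given log2 difference, knockout minus wild type, for all 19938 genes, 35 assembly factors and 73 structural subunits. Both mitochondrial curves lie left of the all-gene curve, and the assembly factors (median -0.083) lie between all genes (-0.0049) and the subunits (-0.17) over most of the range.

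Further assembly factors outside the member list also lay mostly below wild type. Of 29 listed, 23 were measured and 21 had lower means (53.3% of all genes), with a median of -0.11. At an unadjusted limma p under 0.05, 10 were lower and 0 were higher (6.69% and 3.93% of all genes). In limma, 0 reached an adjusted p under 0.05. Coa7, a complex IV factor, differed by -0.27 ± 0.03 with the smallest adjusted p (limma, 0.083). Cmc2, a twin-cysteine factor of the same complex, differed by -0.37 ± 0.06. For complex I, Aifm1, an import partner in the intermembrane space, differed by -0.22 ± 0.07 (-0.14 without knockout replicate 2) and Dmac2 by -0.20 ± 0.07. Uqcc1, needed for cytochrome b, differed by -0.46 ± 0.15 with overlap (-0.31 without knockout replicate 3). Uqcc3 stood at -0.06 ± 0.07, which was -0.0070 without knockout replicate 3, -0.0098 without wild type replicate 2, -0.016 under array weights, -0.09 without wild type replicate 3 and -0.10 without knockout replicate 1. Fmc1, a complex V factor, differed by -0.21 ± 0.06 and Atp5s by -0.19 ± 0.08 (-0.10 without knockout replicate 3). Sdhaf4 of complex II stood at -0.11 ± 0.07, and at -0.18 without knockout replicate 1, -0.07 without knockout replicate 3 and -0.07 without wild type replicate 1. Sdhaf3 of the same complex stood at -0.09 ± 0.10, and at -0.21 without knockout replicate 1, -0.03 without replicate 2, -0.02 without replicate 3 and -0.05 without wild type replicate 1.

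Genes that supply the cofactors were read as a last group of 23 measured genes. Of 11 genes for iron-sulphur clusters, 9 had lower means (53.3% of all genes), with a median of -0.15. At an unadjusted limma p under 0.05, 7 of the 11 were lower (6.69% of all genes). Bola3, a late-acting cluster transfer factor, differed by -0.26 ± 0.05 and Hspa9, the mitochondrial HSP70, by -0.28 ± 0.07. Of 7 heme synthesis genes, 7 had lower means and 3 were lower at that threshold (53.3% and 6.69% of all genes). Cpox stood at -0.22 ± 0.07 and Urod at -0.14 ± 0.05. Of 5 copper genes, 2 had lower means and 1 was lower at that threshold (53.3% and 6.69% of all genes). It was Slc25a3, which carries copper and phosphate, at -0.09 ± 0.03, while the copper pump Atp7a stood at 0.12 ± 0.06 (0.07 without knockout replicate 2). None of the 23 was higher at that threshold (3.93% of all genes) or passed at an adjusted p under 0.05 in limma (0.0251%).

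The choice of genes did not use their promoters, and the motif counts are descriptions with no test. Promoter windows from 250 bases before to 50 after the start were matched by symbol for 30 of the 36 members in RefSeq (GRCm38.p6). Both strands were searched for 4 motifs. CCGGAAG, a core bound by ETS factors such as GABP, was in 36.7% of member windows, in 23.8% of those of structural subunits, in 13.6% of those of measured genes and in 9.93% of all. AAGATGGCG, a YY1 core, was in 13.3%, 11.1%, 2.29% and 1.64% in that order. GCGCATGCG, an NRF1 core, was in 10.0%, 11.1%, 2.85% and 1.95%. AAGGTCA, a half-site of estrogen-related receptors, was in 0 of 30 member windows, and in 12.7%, 4.48% and 5.38% of the others. Matches of different motifs did not overlap in the member windows. A match describes letters and shows no binding.

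Some members start back to back with another gene. A neighbour on the opposite strand whose start lay upstream within 500 bases was found for 14 of 30 members, or 46.7%, against 12.9% of measured genes. In 12 of these pairs both genes were measured. The neighbours had a median difference of -0.037, with 8 of 12 below wild type (53.3% of all genes) and 1 lower at an unadjusted limma p under 0.05 (6.69% of all genes). That one, Zswim7, was singled out after its value was seen. Its start lies 78 bases from the Ttc19 start used here, and 33 bases lie between it and an outer RefSeq start of Ttc19. Zswim7 differed by -0.22 ± 0.06 (limma adjusted p = 0.28) with no overlap, next to -0.24 for Ttc19. Ndufaf5 differed by -0.26 while its neighbour Esf1 stood at 0.06 ± 0.05.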

How the data were processed

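Total RNA (100 ng) was extracted with TRIzol and biotin-labelled, per the labels' protocols. The authors deposited 1 value table of 28856 probe sets on 7 arrays, and its values were taken as log2 expression. They ran from 4.41 to 14.65, above the 11.09 that a natural log of a 16-bit signal allows, so the base is inferred and every difference and fold rests on it. For background correction, summarization, scaling between arrays and genome build, the labels used here give no detail. Scaling could remove a shift shared by all genes, and dim probe sets can understate differences. All 35 measured members lay above the lower quartile of probe-set means. The number of arrays limits precision. Columns left unused numbered 0.

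GEO's platform annotation gave 1 symbol to 21789 probe sets, several to 1621 and none to 5446. The 21789 were fitted with limma 3.58.1 in R 4.3.3 (lmFit, eBayes, no covariate, no filter), with Benjamini-Hochberg adjustment over them, and the script was checked on simulated data. Values after ± are moderated standard errors. Folds are 2 to the power of the difference.

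Members and lists were chosen with earlier results of these data known, so no list was tested as a set. Values per array were given for the 3 members of smallest p in complexes I and IV, the 2 of smallest p in complexes II, III and V, and Oxa1l. Ndufaf5, Ndufaf6, Sco1 and Cox18 were added after their values were seen. Of each other list, the 2 of smallest p per role were named. The planned display of protein motifs was not made, and promoters were shown in its place, with motifs, windows and neighbours chosen after the values were seen. Alternatives were 16 in number and included each array left out in turn.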

Additional observations from a re-analysis of the deposited data

Results flagged for a closer look

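In the wild type group of 4, the values of each of the 35 members were checked for an array far from the others. Dixon's test was used at its usual critical value, which chance passes in about 1 of 20 groups of normally distributed values without ties. Dixon's test picked out 3 members. Foxred1 read 8.60 on wild type replicate 1, against 8.50 on each of the other arrays. Cox15 read 9.00 on wild type replicate 2, against 9.06 to 9.07. Tmem70 read 9.93 on wild type replicate 2, against 9.74 to 9.77. Foxred1 held equal values on wild type replicates 2 and 3, and Cox15 on wild type replicates 1 and 3, so the stated rate may not hold for them. The knockout group of 3 was not checked in this way.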

How the results depend on the processing

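No member was higher at an unadjusted limma p under 0.05 in any of the 16 alternatives, and between 29 and 33 of 35 had lower means. The count of members lower at that level was 8 with the replicate number as a block, where 5.10% of all genes were lower. It was 10 to 14 under other normalizations, weights, priors and probe-set choices (6.23% to 8.24% of all genes), with 14 after median centring (7.71%). It was 6 to 13 when 1 array was left out (4.14% to 8.50% of all genes), with 13 without knockout replicate 1 (8.50%). At an unadjusted p under 0.01 it was 4, where 1.97% of all genes were lower. The share of all genes lower at 0.05 was 4.35% without wild type replicate 3 and 4.14% without knockout replicate 2. When 1 array was left out, the median difference ran from -0.12 to -0.077 and the count of members without overlap from 14 to 20, which for given probe sets leaving out an array can only keep or raise (12.3% of all genes without knockout replicate 1 and 12.2% without replicate 3). That count was 12 after quantile normalization, where 7.21% of all genes had no overlap in this direction. Same-numbered arrays of both groups had deviations correlated at 0.29, 0.16 and -0.20 over genes, so the numbers were not taken as pairs. In the block fit the differences did not draw on wild type replicate 4, which has no same-numbered knockout array. The block changed no call of a member at an adjusted p under 0.05. Of 525 recomputed member differences 14 changed sign, all of differences within 0.16 log2 units of 0. After median centring Ndufaf2 was -0.0041 and Surf1 -0.012, and under array weights Surf1 was -0.0013 and Cox17 0.035. When 1 array was left out, Ndufaf2 ran from -0.012 (without knockout replicate 1) to 0.050, Nubpl from -0.13 to 0.013 (without wild type replicate 3), Foxred1 from -0.15 to 0.022 (without knockout replicate 3) and Lyrm7 from -0.14 to 0.015 (without wild type replicate 1). Surf1 ran from -0.049 (without knockout replicate 1, and -0.015 without wild type replicate 2) to 0.034, Cox17 from -0.10 to 0.090 (without knockout replicate 3, and 0.0017 without wild type replicate 1), Cox18 from -0.019 (without wild type replicate 2) to 0.27 and Cox19 from -0.080 to 0.034 (without wild type replicate 3). The cause of these turns was not tested.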
